A study of Mus musculus with 24 samples.

Results

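The 39 Hox cluster genes were taken as every gene entry of the deposited tables whose single symbol is Hox, a cluster letter and a number. They are 39 of the 24203 entries that name 1 symbol, among 25239 entries listed in all. HoxA holds 11 of them (chr6:52155367-52260880, minus strand), HoxB 10 (chr11:96194361-96368253), HoxC 9 (chr15:102921131-103036852) and HoxD 9 (chr2:74668310-74765142), the last 3 clusters on the plus strand and all in mm10 coordinates. The 24 libraries come from XR-seq, which sequences the short DNA pieces that nucleotide excision repair releases from damaged sites. All were made from wild-type C57BL/6 females aged 6 months (the growth protocol writes C57BL/6J), housed on 12 h light and 12 h dark and given cisplatin intraperitoneally at 10 mg/kg, with tissue taken 2 h after the injection. The groups are kidney and liver at zeitgeber times (ZT, counted from lights on) of 0, 4, 8, 12, 16 and 20 h, with 2 libraries for each tissue and time, thus 12 a tissue, and no untreated group was used here. The labels do not say that the 2 libraries of a time came from different mice, so p-values reflect only how far these libraries differ, which can be a technical spread. The extraction protocol names lesions other than platinum adducts at its second antibody step, while the series' design text names cisplatin. The kidney libraries held 8718055 to 33716763 reads each, the liver libraries 12917058 to 28244795.

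Hox genes encode homeodomain transcription factors that give cells their position along the head-to-tail axis. Each cluster carries up to 13 paralogue groups in the same order, and the groups at the low end of the numbering are switched on earlier and further forward in the embryo than those at the high end. Adult organs keep part of this code: kidney epithelium and stroma derive from Hox-expressing mesoderm, whereas hepatocytes derive from foregut endoderm. Repair of the transcribed strand (TS) is coupled to the passage of RNA polymerase, so that TS reads follow transcription, while repair of the non-transcribed strand (NTS) depends mainly on how open the chromatin is.

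Cisplatin mainly links adjacent guanines on the same strand, and the promoters below are shown for how far the member genes differ in that sequence. RefSeq windows (build GRCm38.p6) were matched for 22 of the 39 members by symbol. The upstream 250 bases of 3 members are printed 5′ to 3′ on the coding strand. Hoxb4 was the densest member in liver, Hoxd9 the densest HoxD member in kidney, and Hoxd12 the least dense member in kidney. Capitals mark runs of C, each of which is a run of G, a possible platinum site, on the template strand. Hoxb4 lies at chr11:96318017-96318266, Hoxd9 at chr2:74697513-74697762 and Hoxd12 at chr2:74674763-74675012, all upstream of the gene on the plus strand.
Hoxb4: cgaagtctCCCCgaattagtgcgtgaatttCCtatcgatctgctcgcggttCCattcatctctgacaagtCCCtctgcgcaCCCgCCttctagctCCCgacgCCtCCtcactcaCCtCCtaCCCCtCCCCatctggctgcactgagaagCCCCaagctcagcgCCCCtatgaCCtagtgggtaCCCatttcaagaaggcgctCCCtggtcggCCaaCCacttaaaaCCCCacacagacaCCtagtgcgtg
Hoxd9: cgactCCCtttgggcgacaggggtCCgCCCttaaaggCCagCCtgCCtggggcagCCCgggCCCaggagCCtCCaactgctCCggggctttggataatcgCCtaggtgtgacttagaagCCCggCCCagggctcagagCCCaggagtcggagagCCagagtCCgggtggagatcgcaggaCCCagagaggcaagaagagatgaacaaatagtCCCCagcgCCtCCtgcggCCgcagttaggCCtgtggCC
Hoxd12: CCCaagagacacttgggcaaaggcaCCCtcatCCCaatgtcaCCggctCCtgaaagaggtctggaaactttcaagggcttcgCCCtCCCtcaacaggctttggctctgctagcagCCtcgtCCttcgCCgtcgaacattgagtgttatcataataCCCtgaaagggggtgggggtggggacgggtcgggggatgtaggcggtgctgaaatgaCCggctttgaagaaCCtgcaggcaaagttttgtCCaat
In these 250 bases Hoxb4 held 39 GG steps on the template strand against 7 on the coding strand, a skew that neither of the others shows. Hoxd9 held 34 and 30, and Hoxd12 20 and 31. Over windows of 250 bases before and 50 after the start, the 22 members had a median of 24.5 template GG steps, near the 22.0 of all 32851 windows, and of 32.0 coding GG steps against 23.0. The motif TGATNNAT, a composite Pbx and Hox site, was found on either strand in 3 of the 22 windows (13.6%, all windows 8.85%), TTTATNA, bound by posterior Hox proteins, in 6 (27.3%, all windows 14.1%) and the TATA box TATAAA, which can overlap the previous motif, in 3 (13.6%, all windows 13.6%). A match describes letters and is no evidence of binding.

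The tissues matched their labels by marker genes. Summed TS density (RPKM, reads per kilobase of gene scaled to library size) of 6 proximal tubule markers lay between 6.92 and 9.12 in the kidney libraries, whereas the liver libraries held 0.201 to 0.604. The 8 hepatocyte markers summed to 3.36 to 4.32 in kidney but 12.0 to 18.4 in liver, and no marker of either list was at 0 in a tissue. Liver ZT0 replicate 1 and liver ZT4 replicate 1 stood apart from the other liver libraries in Hox reads. The first had a summed HoxB TS density of 10.98 against 2.90 to 6.49 in the others, together with a summed density of 5 endothelial markers of 4.00 against 1.36 to 2.15, and the lowest hepatocyte sum, 12.0. It was also highest in summed podocyte markers (1.22 against 0.458 to 0.614), immune markers (1.08 against 0.460 to 0.799) and fibroblast and mesangial markers (1.48 against 0.825 to 1.30), so markers of several cell types were high there. The second had the highest HoxC and HoxD sums, 1.25 and 1.23 against 0.487 to 0.859 and 0.333 to 0.654, and the highest proximal tubule sum, 0.604 against 0.201 to 0.367. Its loop and distal tubule sum (0.419) was just under the highest of the other liver libraries (0.420, ZT12 replicate 2). Its podocyte sum (0.545) and collecting duct sum without Hoxb7 (0.412) lay inside the ranges of the other liver libraries. Its cholangiocyte sum, of a list also higher in kidney (5.42 to 7.62), was the highest of liver, 3.26 against 2.08 to 3.20. The part of these markers in the Hox values was not tested. Ranges, means and differences below are over all 12 liver libraries. Counts, cluster medians and correlations that rest on them are also given without both, unless marked as over all 12.

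**Figure D1:**
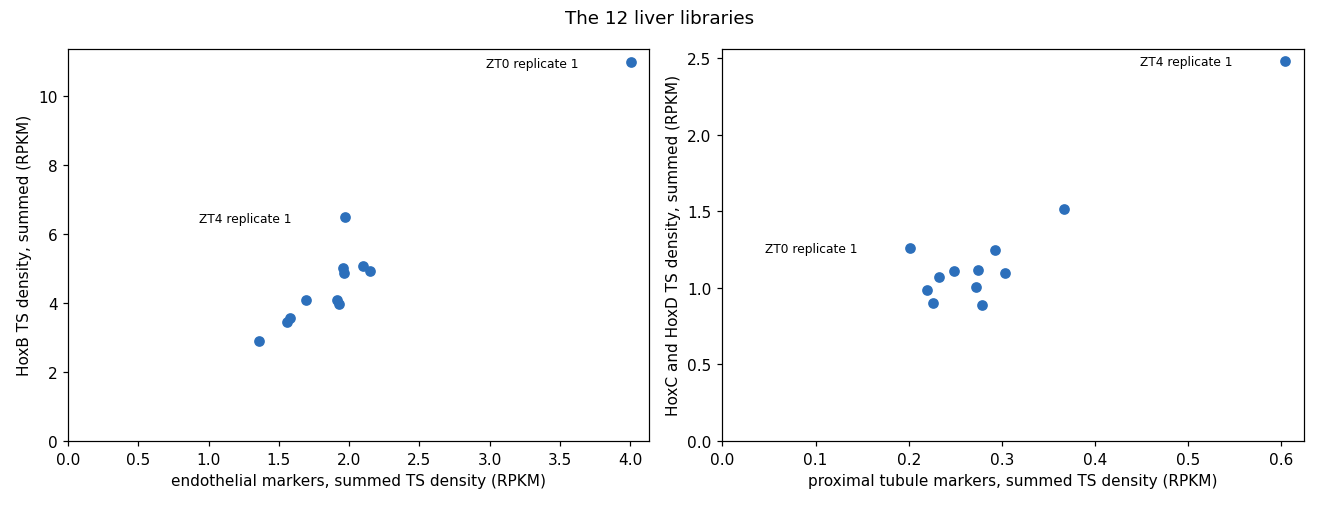
Summed TS density (RPKM) of the HoxB genes against that of 5 endothelial markers (left) and of the HoxC and HoxD genes against that of 6 proximal tubule markers (right), 1 point per liver library. Liver ZT0 replicate 1 stands alone on the left at 10.98 and 4.00, and liver ZT4 replicate 1 stands alone on the right.

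The typical Hox gene was repaired more densely than the typical gene in kidney and less densely in liver. The median TS density of the 39 members was 2.86 RPKM in kidney against 0.513 for all 24357 entries with a symbol, and 0.0890 in liver (0.0751 without the 2 libraries that stand apart) against 0.407 for all entries. In 34 of the 39 members every kidney library lay above every liver library in TS RPKM, which held for 12.7% of all entries. Without the 2 liver libraries that stand apart it was again 34, against 14.7% of all entries. The exceptions, in both counts, were Hoxd12, Hoxc12, Hoxb13, Hoxd13 and Hoxa13, all from the high-numbered end of a cluster. Olfactory receptor genes, which both tissues keep silent, had medians of 0.0111 RPKM in kidney and 0.00732 in liver. In bulk tissue, fewer cells of a type and less repair per cell cannot be told apart.

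HoxB was the densest cluster in kidney. Hoxb6 ranged from 6.05 to 9.84 RPKM over the kidney libraries (median 7.35, mean 7.61 ± 1.22 SD, n = 12) and was denser than 99.3% of all entries, while in liver it ranged from 0.239 to 1.36 (median 0.466). Hoxb4, a regulator of blood stem cells, ranged from 5.36 to 8.47 (median 6.15) in kidney and from 0.706 to 2.87 (median 1.14) in liver. Hoxb2, which patterns the hindbrain, ranged from 4.73 to 7.70 (median 5.95) in kidney and from 0.537 to 1.98 (median 0.934) in liver. In each of these 3 genes the lowest kidney library exceeded the highest liver library, and the highest liver library was ZT0 replicate 1. Leaving out both libraries that stand apart brought the liver mean of Hoxb4 from 1.28 to 1.09 and that of Hoxb2 from 0.963 to 0.839. Hoxb1, at the front of the cluster, and Hoxb13, at its back and set apart from the rest, were sparse in kidney with means of 0.282 ± 0.119 and 0.121 ± 0.0602 (SD, n = 12), so that high density was held by Hoxb2 to Hoxb9.

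HoxA showed the same rise and fall along its length in kidney. Hoxa4 ranged from 5.98 to 9.16 RPKM (median 6.54), Hoxa6 from 4.35 to 5.81 (median 5.04) and Hoxa5, a regulator of lung and thoracic patterning, from 3.66 to 5.99 (median 4.62). In liver the same genes ranged from 0.297 to 1.305 (median 0.493), from 0.0179 to 0.489 (median 0.0901) and from 0.328 to 0.874 (median 0.438), all below the kidney libraries. Without the 2 libraries that stand apart the liver mean of Hoxa6 was 0.0751 rather than 0.115. All 3 lie inside the 44006 bp listed for Hoxa3 on the same strand, and how reads in shared stretches were counted is not given in the sources used here. Density in kidney fell to 0.664 ± 0.141 in Hoxa11, which acts with its paralogues in forming the ureteric bud, and to 0.310 ± 0.140 in Hoxa13, a gene of the distal limb and urogenital tract (SD, n = 12).

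HoxC and HoxD were less dense in kidney, with median densities over their members of 2.07 and 1.78 RPKM against 3.44 in HoxA and 5.10 in HoxB, and sparse in liver, with 0.0669 and 0.0495 (0.0589 and 0.0504 without the 2 libraries that stand apart). Hoxc6 ranged from 2.72 to 4.35 RPKM in kidney (median 3.29) and from 0.0738 to 0.267 in liver (median 0.135). Hoxc9 ranged from 2.57 to 3.17 (median 2.91) and from 0.0329 to 0.161 (median 0.0586), and Hoxc8, a thoracic patterning gene, from 1.93 to 3.18 (median 2.50) and from 0.0262 to 0.178 (median 0.0658). None of these ranges overlapped between the tissues. Hoxd9 ranged from 4.36 to 5.74 RPKM in kidney (median 5.09) and from 0.0361 to 0.343 in liver (median 0.115). Hoxd4, inside the span of Hoxd3, ranged from 3.37 to 4.04 (median 3.62) and from 0.0386 to 0.246 (median 0.0647), and Hoxd8 from 2.83 to 3.54 (median 3.09) and from 0.0320 to 0.213 (median 0.0813). The highest liver value of Hoxd3, 0.179, came from ZT4 replicate 1, and the mean over the 10 liver libraries left without both that stand apart was 0.0485 ± 0.00945 (SD), against 0.0587 over all 12. At the far end, Hoxd12 drew 0 to 9 TS reads from each library of kidney and 0 to 4 from each of liver. In the kidney library with 0 the limit that 3 reads allow is 0.0841 RPKM, which covers counting error only. Across the 39 genes the order of TS density in kidney and liver was similar (Spearman's rho 0.76, and 0.72 without the 2 liver libraries that stand apart), a description over genes that share libraries and cluster neighbours. Within clusters, over all 12 liver libraries, rho was 0.36 in HoxA, 0.68 in HoxB, 0.60 in HoxC and 0.82 in HoxD, so the order was least alike in HoxA.

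**Figure D2:**
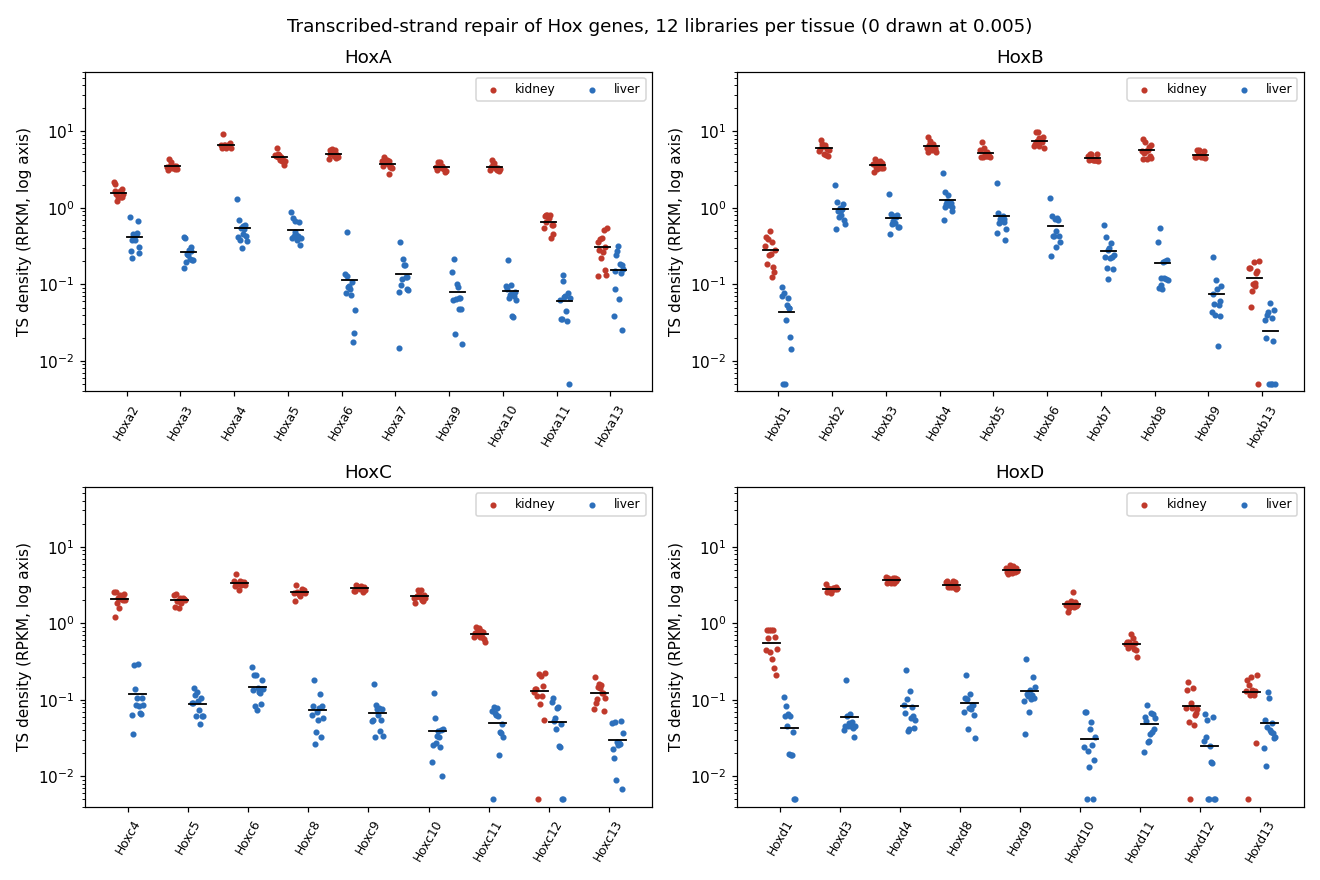
TS density in RPKM on a log axis for the Hox genes drawn, ordered by paralogue number within each cluster, with 12 kidney and 12 liver libraries as points and the mean as a bar (0 drawn at 0.005). Kidney points lie above liver points for all genes drawn but 5, and density drops at the high-numbered end of every cluster.

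The first test asked how TS repair of each gene differed between kidney and liver, as the mean over the 6 times. Of the 39 members 36 passed the filter on low counts, and 36 were called higher in kidney and 0 lower (edgeR's quasi-likelihood test, adjusted p of at most 0.00447 for each). Over all 19702 genes tested 42.2% were called higher and 31.7% lower in kidney. DESeq2 also called 36 members higher and 0 lower, and edgeR without the 2 liver libraries that stand apart called 38 higher and 0 lower. The median log2 difference was 4.11 for the members and 0.07 for all genes. Over the 36 members it was 4.36 without those 2 libraries, which moved single members by -0.19 to 0.64, the most in Hoxd10 (6.47 in place of 5.83). In that fit liver ZT4 was left with replicate 2 alone, which had 0 TS reads of Hoxd10. The liver mean of Hoxd10 moved only from 0.0303 to 0.0271 RPKM, so the shift of its log2 difference does not measure the 2 libraries alone. Hoxb13, Hoxc12 and Hoxd12 did not pass the filter. Because a member could pass the filter through kidney alone, the count covers only the members that passed; in liver alone 15 of the 39 failed it.

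The size of the difference varied along the clusters. Paralogue groups 9 and 10 had log2 differences from 5.32 to 6.02 over 4 genes and from 5.40 to 5.88 over 3. The largest was that of Hoxb9, 6.02 ± 0.16 (SE), with 4.46 to 5.72 RPKM in kidney (median 4.84) and 0.0157 to 0.227 in liver (median 0.0585). Hoxc10, a gene of lumbar identity, differed by 5.88 ± 0.13 on the log2 scale, with 1.84 to 2.75 RPKM in kidney (median 2.19) and 0.0101 to 0.121 in liver (median 0.0330). Hoxd10 differed by 5.83 ± 0.20, with 1.39 to 2.53 RPKM in kidney (median 1.72) against 0 to 0.0687 in liver (median 0.0247), where 2 of the 12 libraries had 0 reads (3 reads would give at most 0.0455). In each of these 3 genes the lowest kidney library exceeded the highest liver library. Hoxa6, Hoxd3 and Hoxd4 followed at 5.72 ± 0.16, 5.64 ± 0.12 and 5.56 ± 0.12 on the log2 scale. Hoxd3, which shapes the first neck vertebra, ranged from 2.50 to 3.28 RPKM in kidney (median 2.83) and from 0.0328 to 0.179 in liver (median 0.0459).

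Groups 11 and 13 differed less, from 3.38 to 3.89 and from 1.02 to 2.01 on the log2 scale. The group 11 genes Hoxa11, Hoxc11 and Hoxd11, a group needed for kidney formation in the embryo, had mean kidney densities of 0.664 ± 0.141, 0.725 ± 0.0997 and 0.531 ± 0.095 RPKM (SD, n = 12), each below the group 9 and 10 genes of its cluster. Hoxa13 differed least of the members tested, 1.02 ± 0.29 (SE, adjusted p = 0.00447, edgeR), with 0.130 to 0.546 RPKM in kidney (median 0.298) and 0.0255 to 0.316 in liver (median 0.155), so that the tissues overlapped. Hoxd13, a digit patterning gene, differed by 1.54 ± 0.30, and its kidney range of 0 to 0.212 RPKM (median 0.129; 0 reads in 1 library, where 3 reads would give 0.105) overlapped the liver range of 0.0134 to 0.127 (median 0.0390). Hoxc13, a hair and nail gene, differed by 2.01 ± 0.24, with 0.0704 to 0.196 RPKM in kidney (median 0.122) and 0.00673 to 0.0526 in liver (median 0.0267). The calls of Hoxa13 and Hoxd13 were each lost when a certain library was left out. Without kidney ZT20 replicate 2 the log2 difference of Hoxa13 was 0.76. Without kidney ZT4 replicate 2 that of Hoxd13 was 0.57, but the other kidney library of that time had 0 Hoxd13 reads. The shift in Hoxd13 thus does not measure the library left out alone.

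In HoxB the difference rose from Hoxb3 to Hoxb9, as a description, since neighbours were not tested against each other. The log2 difference was 2.74 ± 0.29 in Hoxb1, 2.63 ± 0.13 in Hoxb2, 2.27 ± 0.14 in Hoxb3 and 2.29 ± 0.15 in Hoxb4. Further along it was 2.78 ± 0.16 in Hoxb5, 3.72 ± 0.17 in Hoxb6, 4.02 ± 0.14 in Hoxb7 and 4.98 ± 0.21 in Hoxb8. Mean kidney density lay between 3.63 and 7.61 RPKM from Hoxb2 to Hoxb9, while mean liver density was 1.28 RPKM in Hoxb4 and lower in each next gene, down to 0.0757 in Hoxb9. Spearman's rho of the difference with paralogue number was 0.85 over 9 HoxB genes, 0.18 over 11 HoxA genes, -0.17 over 8 HoxC genes and -0.38 over 8 HoxD genes, as a description across genes that share libraries. Without the 2 liver libraries that stand apart it was 0.87, 0.18, 0.10 and -0.38 in turn, so the sign in HoxC turned. Both HoxB values leave out Hoxb13, whereas those of the other clusters include Hoxa13, Hoxc13 and Hoxd13. Hoxb13 passed the filter only without those 2 libraries, with a log2 difference of 2.28, the lowest of HoxB in that fit. The HoxB values thus do not describe the whole cluster. Hoxb3, which was listed over 24805 bp and so drew the most reads of the cluster, ranged from 2.91 to 4.38 RPKM in kidney (median 3.58) and from 0.459 to 1.54 in liver (median 0.657). Hoxb7, a marker of the collecting duct lineage, had means of 4.53 ± 0.38 in kidney and 0.275 ± 0.130 in liver (SD, n = 12). The other 5 collecting duct markers together gave 4.09 to 6.17 RPKM in kidney, against 0.230 to 0.549 in liver, and their part in the Hoxb7 difference was not tested.

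At the low end of HoxA the difference was also small. Hoxa2, a gene of hindbrain and branchial arch identity, differed by 1.90 ± 0.14 on the log2 scale, with 1.22 to 2.21 RPKM in kidney (median 1.51) and 0.222 to 0.769 in liver (median 0.405). The spread within a paralogue group varied. Group 3 spanned 2.27 to 5.64 and group 4 spanned 2.29 to 5.56, whereas group 2 (2 genes) spanned 1.90 to 2.63, group 7 (2 genes) 4.02 to 4.89 and group 8 (3 genes) 4.98 to 5.16.

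**Figure D3:**
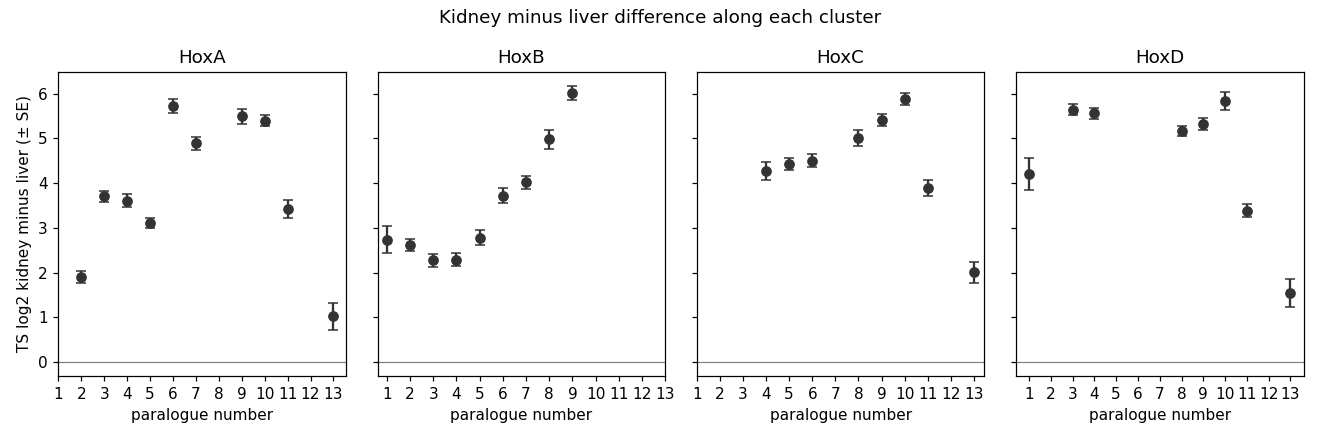
Kidney minus liver difference of TS repair (log2, points with SE bars) against paralogue number for the Hox genes drawn, 1 panel per cluster. The difference climbs along HoxB from Hoxb3 to Hoxb9 and is 5.32 or more in groups 9 and 10 of every cluster that has them. It falls to 1.02 to 2.01 in group 13, where Hoxb13 was not tested.

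On the NTS the members also had more repair in kidney, with a smaller median difference. Of the 38 members tested, 38 were called higher in kidney and 0 lower (edgeR, adjusted p of at most 0.0345), where 33.9% and 32.2% of all 19124 genes tested were called higher and lower. On NTS reads of liver alone 20 of the 39 members failed the filter, so a member could pass through kidney alone, where it is higher, and the count covers only members that passed. Hoxb1 and Hoxb13 each had 0 NTS reads in 5 of the 12 liver libraries. Without the 2 liver libraries that stand apart 38 of 39 members tested were called higher. The median log2 difference was 2.72 for the members (2.81 without those 2 libraries) and 0.02 for all genes. In 28 of the 36 members with both values the TS difference was the larger, and in 8 the NTS difference was: Hoxa2, Hoxb1, Hoxb3, Hoxb4, Hoxb5, Hoxb7, Hoxc11 and Hoxc13. These counts compare estimates only. Of the 8, the test of the strand ratio below called Hoxa2, Hoxb3 and Hoxb4 lower in kidney and none of the others. In 29 of 39 members every kidney library exceeded every liver library in NTS RPKM, against 10.4% of all entries, and in 31 against 12.1% without those 2 libraries. Hoxd8 differed most, by 4.45 ± 0.11 (SE), with 2.11 to 3.22 RPKM on the NTS in kidney (median 2.56). Hoxa10, a gene of the uterus and lumbar spine, and Hoxb7 followed at 4.21 ± 0.12 and 4.198 ± 0.15 on the log2 scale, the latter against 4.02 on the TS. Hoxa13 differed least, by 0.60 ± 0.25 (adjusted p = 0.0345, edgeR), and lost its call without any 1 of the 6 replicate 2 libraries of kidney, without any 1 of liver ZT0, ZT4, ZT12, ZT16 and ZT20 replicate 1 and ZT8 replicate 2 (adjusted p from 0.0514 to 0.586 over these), without both liver libraries that stand apart (adjusted p = 0.133) and in DESeq2 (adjusted p = 0.0895), which called 37 members. Without kidney ZT20 replicate 2, Hoxd13 lost its NTS call as well (log2 0.04, adjusted p = 0.816, edgeR), the other kidney library of that time having 0 NTS reads of it.

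The next question was how far repair of Hox genes favoured the strand read by RNA polymerase. The ratios are those of reads. They were not corrected for the GG steps of each strand, which were not counted in gene bodies. In kidney all 39 members passed the filter, 31 were called higher on the TS, 3 lower and 5 neither (edgeR), where 78.6% and 11.1% of all 19756 genes tested were called higher and lower. The median log2 TS/NTS was 1.69 for the members and 2.34 for all genes. The share of members called higher was thus near that of all genes, and the median ratio of the members was below it. In liver 27 members passed, 18 were called higher on the TS and 0 lower (edgeR; DESeq2 also called 0 lower, and the 18 are all members that had an unadjusted p under 0.05), where 77.9% and 11.3% of 19256 genes were called higher and lower. The median was 0.71 for these 27 and 2.51 for all genes. When the strands were scaled to each other, which sets the typical gene near 0, 8 members were higher and 25 lower on the TS in kidney, and 1 and 25 in liver, so each direction given here is that of the reads themselves and not relative to other genes.

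The strongest strand bias of kidney was that of Hoxc6, with 1849 TS and 98 NTS reads over the 12 libraries and a log2 TS/NTS of 4.22 ± 0.11 (SE). By library its log2 ratio ran from 3.38 to 4.86 (median 4.203). Hoxd4 (3.63 ± 0.10), Hoxa6 (3.54 ± 0.11) and Hoxd3 (3.35 ± 0.11) came next, with TS above NTS in all 12 kidney libraries. Their lowest and highest libraries were 2.98 and 4.37 (median 3.70) for Hoxd4, 2.81 and 4.66 (median 3.53) for Hoxa6, and 2.62 and 3.93 (median 3.35) for Hoxd3. Hoxa6 and Hoxd3 overlap antisense entries (Hoxaas3 and Hoxd3os1), where a gene's TS is its partner's NTS. Hoxa3, Hoxa5, Hoxa11, Hoxb5 and Hoxb6 overlap such entries as well.

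A few members had more repair on the NTS. Hoxa2 had 916 TS and 1458 NTS reads in kidney, with NTS above TS in all 12 libraries, a log2 TS/NTS of -0.68 ± 0.08 (SE, adjusted p = 5.42e-08, edgeR) and a range of -1.36 to -0.21 (median -0.70). Hoxc11 had 379 and 464 reads, a log2 ratio of -0.28 ± 0.10 (adjusted p = 0.0112, edgeR) and a range of -0.83 to 0.37 (median -0.23). Hoxd12 had 54 and 89 reads, -0.71 ± 0.24 (adjusted p = 0.009, edgeR) and a range of -3.46 to 0 (median -0.39), and Hoxc12 had 56 and 73 reads and -0.37 ± 0.29 (range -3.91 to 1.58, median -0.35) with no call. None of these genes overlaps a listed antisense entry. Hoxd8, at 2555 and 2052 reads, had a log2 ratio of 0.30 ± 0.06 in kidney. The call of Hoxc13 (0.38 ± 0.16, adjusted p = 0.0309, edgeR) was lost in DESeq2 (adjusted p = 0.0571) and without any 1 of kidney ZT12 replicates 1 and 2, ZT16 replicate 1, and ZT0 and ZT20 replicate 2 (adjusted p from 0.0531 to 0.0797).

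In liver the bias was strongest in HoxB. Hoxb4 had 1039 TS and 154 NTS reads and a log2 TS/NTS of 2.74 ± 0.11 (SE; library range 2.31 to 3.33, median 2.67), Hoxb2 one of 2.11 ± 0.13 (1.35 to 2.62, median 2.25), Hoxb3 one of 2.09 ± 0.07 (1.78 to 2.56, median 2.07) and Hoxa5 one of 1.80 ± 0.14 (0.97 to 2.47, median 1.88). TS exceeded NTS in all 12 liver libraries for each of these 4. The lowest of the 27 were Hoxd8 at -0.23 ± 0.21 (-0.89 to 1.28, median -0.34), Hoxa2 at -0.06 ± 0.13 (-1.15 to 0.67, median -0.06), Hoxd11 at 0.02 ± 0.21 (-1.58 to 1.58, median 0) and Hoxc9 at 0.03 ± 0.22 (-1.06 to 1.40, median 0.22). None of these last 4 was called in liver. Their totals were 75 to 252 TS reads over 12 libraries, which leaves wide standard errors. Of the 18 calls, that of Hoxa7 was lost without liver ZT4 replicate 1 (log2 0.39, adjusted p = 0.148, edgeR) or without any 1 of liver ZT8 and ZT12 replicates 1 and 2 and ZT16 replicate 2 (adjusted p from 0.0515 to 0.0744). Hoxa9 lost its call without liver ZT4 replicate 1 (adjusted p = 0.194), ZT8 replicate 2, ZT12 replicate 1 or ZT16 replicate 2, and Hoxb9 without liver ZT4 replicate 1 (adjusted p = 0.162), ZT0 replicate 2 or ZT20 replicate 2. Without both libraries that stand apart 15 members were called, with Hoxa7 (adjusted p = 0.12) and Hoxc4 (adjusted p = 0.0503) no longer among them and Hoxa9 no longer passing the filter, and DESeq2 called 15.

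**Figure D4:**
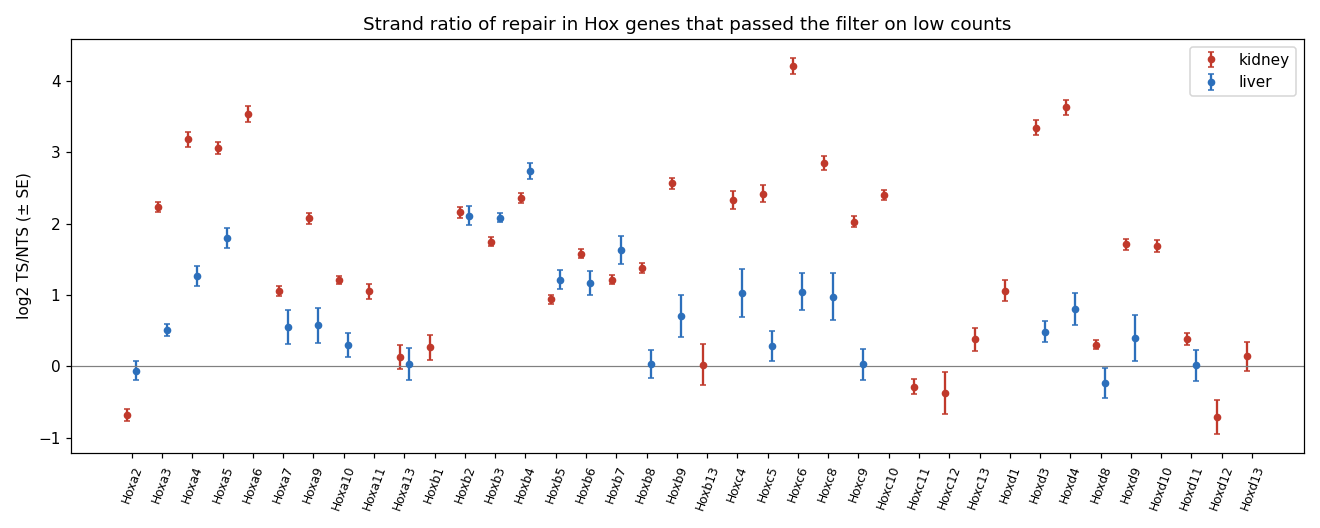
Log2 TS/NTS with SE bars for the Hox genes drawn that passed the filter in a tissue, ordered by cluster and paralogue number. Kidney values run from -0.71 in Hoxd12 to 4.22 in Hoxc6, and in liver the highest values are those of Hoxb4, Hoxb2 and Hoxb3.

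The difference of the strand ratio between the tissues was tested directly. All 39 members were tested, 21 had a higher ratio in kidney, 3 a lower one and 15 neither (edgeR), where 22.2% of 20187 genes were called higher and 35.9% lower. The median difference was 0.86 on the log2 scale for the members and -0.14 for all genes. Hoxc6 differed most, by 3.17 ± 0.33 (SE), followed by Hoxd3 at 2.86 ± 0.19, Hoxd4 at 2.83 ± 0.29 and Hoxa6 at 2.79 ± 0.38. Of the 21, 17 had also passed the filter of the strand test in liver. The other 4, Hoxa6, Hoxa11, Hoxc10 and Hoxd10, had not and entered through kidney, with 65, 56, 52 and 25 TS reads and 37, 54, 40 and 32 NTS reads over the 12 liver libraries, so the counts over members rest partly on sparse liver reads. By cluster 7 of 11 HoxA, 3 of 10 HoxB, 6 of 9 HoxC and 5 of 9 HoxD members had a higher ratio in kidney. The lower ratios were those of Hoxa2 (-0.62 ± 0.16), Hoxb4 (-0.38 ± 0.13) and Hoxb3 (-0.34 ± 0.09). For Hoxb2 the difference was 0.05 ± 0.21 (adjusted p = 0.928, edgeR), an estimate near 0 with an error that leaves room for a change in either direction. Without both liver libraries that stand apart there were again 21 higher and 3 lower ratios, but the calls of Hoxb4 (log2 -0.24, adjusted p = 0.115, edgeR) and Hoxb6 (log2 0.43, adjusted p = 0.0667, edgeR) were lost, and with the strands scaled to each other those of Hoxb3 and Hoxb4 (adjusted p = 0.0679 and 0.171, edgeR). The call of Hoxb6 was also lost without any 1 of kidney ZT4 replicates 1 and 2, ZT8, ZT12 and ZT16 replicate 1 and ZT0 replicate 2, or of liver ZT4 and ZT12 replicates 1 and 2 and ZT0 and ZT16 replicate 2, at log2 values from 0.27 to 0.41. That of Hoxd8 (0.53 ± 0.20) was lost in DESeq2 (adjusted p = 0.0547) and without any 1 of liver ZT12 replicates 1 and 2 and ZT8 and ZT20 replicate 2 (adjusted p from 0.0583 to 0.0834). Without liver ZT16 replicate 2 there were 5 lower ratios in place of 3.

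In the main edgeR fit, which has no replicate block, no Hox gene was called rhythmic over the day in either tissue or on either strand. With that block Hoxa7 was called on the kidney TS, as given below. With a 24 h cosine fit, 0 of 36 members tested were called on the kidney TS (15.0% of all 19277 genes), 0 of 24 on the liver TS (16.6% of 18655), 0 of 39 on the kidney NTS (2.12% of 18932) and 0 of 19 on the liver NTS (3.76% of 18061), by edgeR at an adjusted p of 0.05. At an unadjusted p under 0.05 the counts were 5, 1, 2 and 0. DESeq2 called 1 member, Hoxa7, on the kidney TS (adjusted p = 0.0293) and 0 in the other 3 tests. The median amplitude of the members tested, on the log2 scale, was 0.12 on the kidney TS against 0.13 for all genes, 0.16 against 0.14 on the kidney NTS, 0.24 against 0.14 on the liver TS and 0.24 against 0.15 on the liver NTS. It was thus above that of all genes in 3 of the 4 tests, where no member was called. An amplitude cannot fall below 0 and grows with counting error, and the members were sparse in liver, so these medians do not measure rhythm alone.

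Hoxa7 came nearest. Its kidney TS densities in the 2 libraries of each time were 4.08 and 3.58 RPKM at ZT0, 4.63 and 3.99 at ZT4, 4.22 and 4.27 at ZT8, 3.78 and 4.05 at ZT12, 2.80 and 3.41 at ZT16 and 3.45 and 3.29 at ZT20. The libraries of ZT16 and ZT20 thus all lay below those of the other times. The fitted amplitude was 0.20 ± 0.06 (SE) on the log2 scale, peaking 5.71 h after lights on (edgeR adjusted p = 0.058). With the replicate number as a block, which pairs libraries in kidney, Hoxa7 was called (amplitude 0.19, peak at 5.75 h, adjusted p = 0.0343, edgeR) as were 25.4% of all genes. Hoxa7 was also called without kidney ZT0 replicate 1 (adjusted p = 0.0316) or without ZT0 replicate 2 (adjusted p = 0.0405), and its adjusted p ran from 0.0279 to 0.404 over the alternatives. Hoxa10 was called with library totals as the scale (adjusted p = 0.0381, edgeR) and without kidney ZT0 replicate 1 (adjusted p = 0.0449, edgeR).

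In liver the outcome depended on the libraries that stand apart. Without both, 5 of 25 members tested were called on the TS (edgeR), where 28.1% of all genes were: Hoxb3 (log2 amplitude 0.31, peak 13.2 h), Hoxa3 with 0.34 and 13.5 h, Hoxb5 with 0.38 and 10.9 h, Hoxa2 with 0.59 and 13.5 h, and Hoxa7 with 0.91 and 11.2 h. Their share lies under the share of all genes called in that fit. On the liver NTS Hoxa3 alone was called without both (amplitude 0.45, peak at 15.3 h, adjusted p = 2e-04, edgeR), where 6.75% of all genes were, and also without ZT0 replicate 1 only (adjusted p = 0.00668, edgeR). Single liver libraries decided further TS calls: Hoxa7 was called without ZT4 replicate 1 (adjusted p = 0.0402, edgeR), Hoxa10 without ZT4 replicate 2 (adjusted p = 0.0401, edgeR) and Hoxa6 without ZT16 replicate 1 (adjusted p = 0.0327, edgeR). The fits that called Hoxa10 and Hoxa6 peaked at 3.35 h and 4.37 h, and both kept liver ZT4 replicate 1, which stands apart. That library held 45 of the 199 Hoxa10 and 25 of the 65 Hoxa6 TS reads of liver. Hoxb4 shows the spread at ZT0, where its 2 liver libraries held 2.87 and 0.706 RPKM.

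**Figure D5:**
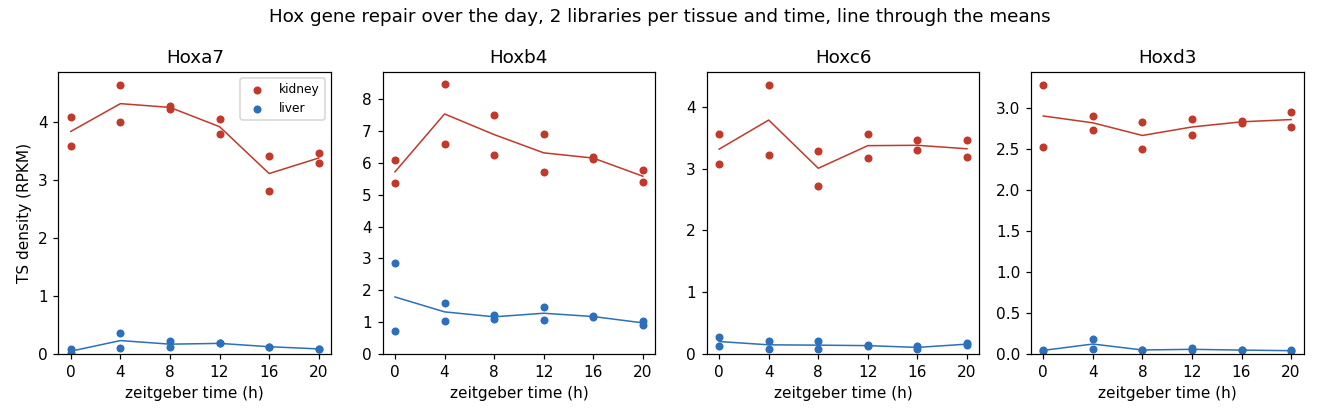
TS density (RPKM, axes from 0) of 4 Hox genes, 1 from each cluster, by zeitgeber time, with 2 libraries per tissue and time as points and a line through their means. Kidney lies above liver at every time, Hoxa7 in kidney is lowest at ZT16, and the 2 liver libraries of Hoxb4 at ZT0 differ by more than those of any other time.

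Repair between the genes was measured in kidney intergenic regions, as RPKM summed over the 2 lines that the deposited tables list for each region. The 14 listed regions that lie inside a cluster (1 in HoxA, 6 in HoxB, 7 in HoxC) had a median of 0.597 RPKM against 0.122 for all 15797 regions. The densest, of 6254 bp between Hoxb5 and Mir10a at chr11:96308911-96315164, ranged from 4.01 to 5.83 over the 12 kidney libraries (median 4.64) and exceeded 99.9% of regions. It lies under a longer RefSeq model of Hoxb3. Between Hoxb9 and Hoxb8 the range was 2.78 to 4.91 (median 3.77), between Hoxc8 and Hoxc6 2.41 to 3.84 (median 3.29) and between Mir196a-1 and Hoxb9 2.13 to 4.62 (median 2.94). RefSeq models of Hoxb8, Hoxc6 and Gm51876 touch these in turn. In HoxC 2 regions under no RefSeq gene were also dense, with 1.59 to 2.41 (median 1.99) between Hoxc9 and Hoxc8 and 1.40 to 1.80 (median 1.57) between Hoxc11 and Hoxc10. Other regions of the clusters lay nearer the median of all regions: 0.0854 to 0.260 (median 0.167) between Hoxc13 and Hoxc12, 0.128 to 0.354 (median 0.204) between Hoxa11 and Hoxa13 and 0.0891 to 0.356 (median 0.232) between Hoxb2 and Hoxb1. These 3 exceeded 58.8%, 66.2% and 67.3% of all regions by their means. A region's density did not follow that of both neighbours throughout, since the last of them adjoins dense Hoxb2 as well as sparse Hoxb1. The region between Hoxc11 and Hoxc10 had a mean of 1.58 RPKM summed over both lines, with 0.392 on line 1 and 1.19 on line 2. Line 1 was the higher between Hoxc9 and Hoxc8 (1.70 against 0.307) and between Hoxc8 and Hoxc6 (2.69 against 0.555). It was the higher in 62.4% of all regions with both neighbours on the plus strand. How these lines relate to the strand ratio of Hoxc11 was not tested. Hoxc11 had kidney means of 0.725 RPKM on the TS and 0.872 on the NTS, and Hoxc10 2.25 and 0.420.

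Genes that act with or on Hox clusters are given beside the 42.2% of all genes called higher and the 31.7% called lower on the TS in kidney. Among 8 Hox cofactors tested, which bind DNA together with Hox proteins, 5 were higher and 2 lower on the TS in kidney (edgeR) with a median log2 difference of 0.26, among them Meis3 at 0.21 and Pknox1 at -0.13. Of 15 Polycomb genes, which keep Hox clusters silent, 7 were higher and 3 lower (median 0.06), with Pcgf2 at 0.62 and Cbx8 at -0.22. Of 13 Trithorax genes and other activators, 3 were higher and 4 lower (median -0.02), with Kdm6b, a demethylase of the Polycomb mark, at 0.20. The median of all genes was 0.07. Of 16 noncoding RNAs of the clusters 12 were tested and all 12 were higher in kidney (median 3.30), with Mir196b at 5.88, Mir196a-1 at 5.83, Mir615 at 5.34 and Hotairm1 at 2.50. Mir615 lies inside Hoxc5 on the same strand, so its reads can be those of Hoxc5, and the sparse entries of this list could pass the filter through kidney alone. Of 10 genes flanking the clusters, 4 were higher and 5 lower (median -0.06), with Snx10 at -2.20, Calcoco1 at -0.43, Hibadh at -0.32 and Smug1 at -0.14.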

How the data were processed

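XR-seq was measured in 12 kidney and 12 liver libraries. Per the file headers, the deposited tables pair a read count with an RPKM value, gene by gene, on either strand at every time, and the deposited intergenic tables, which the authors had drawn down to 8700000 reads (replicate 1) or 20000000 (replicate 2), give RPKM per kidney region. RPKM used each library's total, recovered from the deposited values. Per the submitters' processing notes the genome is mm10; no aligner or counter is named in what was used here. Entries without a symbol (882, with 2.76% of TS reads) were left out.

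The read counts went into edgeR 4.0.16 under R 4.3.3 with limma 3.58.1, by glmQLFit and glmQLFTest after filterByExpr and TMM, with Benjamini-Hochberg adjustment over all genes tested and a threshold of 0.05. For strand models each library was a block, with its TS and NTS reads scaled alike. Rhythms used the cosine and sine of 24 h. Ratios per library added 0.5 reads to each strand. The scripts were tested on simulated data. DESeq2 1.42.0, scalings, the filter, each library left out and a replicate block were tried. Same-numbered libraries deviated together in kidney (correlations of 0.126 to 0.527, 15 of 15 pairs above 0.1) but not in liver (7 of 15) or between tissues (3 of 6), so numbers pair libraries in kidney only.

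The members, lists and tests were chosen with earlier results of these data known. Values are given for the 3 densest members of each cluster, the 6 largest and 6 smallest tissue differences, the 4 highest and 4 lowest strand ratios in each tissue, members called rhythmic, and up to 4 genes of each other list by density; Hoxa7, Hoxa10, Hoxa11, Hoxb1, Hoxb5 to Hoxb8, Hoxb13, Hoxc11 and Hoxd11 were added after their values were seen. A few results are not reported here, and the plots by gene leave out 1 HoxA member, which stays in every count.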

Additional observations from a re-analysis of the deposited data

Results flagged for a closer look

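The strand ratio differed between kidney and liver, by the test of that difference itself, in 24 Hox genes (edgeR, adjusted p under 0.05), given here as log2 TS/NTS in kidney minus that in liver. In HoxA these were Hoxa6 at 2.79, Hoxa4 at 1.92, Hoxa3 at 1.73, Hoxa9 at 1.503, Hoxa5 at 1.27, Hoxa11 at 1.00, Hoxa10 at 0.91 and Hoxa2 at -0.62. In HoxB they were Hoxb9 at 1.86, Hoxb8 at 1.35, Hoxb6 at 0.41, Hoxb3 at -0.34 and Hoxb4 at -0.38. HoxC gave Hoxc6 at 3.17, Hoxc5 at 2.14, Hoxc10 at 2.05, Hoxc9 at 2.00, Hoxc8 at 1.87 and Hoxc4 at 1.31. HoxD gave Hoxd3 at 2.86, Hoxd4 at 2.83, Hoxd10 at 2.03, Hoxd9 at 1.31 and Hoxd8 at 0.53. Hoxa6, Hoxa11, Hoxc10 and Hoxd10 did not pass the filter of the strand test in liver and entered this test through kidney. Over the 12 liver libraries Hoxc10 held 52 TS and 40 NTS reads, and Hoxd10 25 and 32.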

How the results depend on the processing

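Scaling the strands to each other, which by construction puts the median gene at 0.01 in kidney and 0.16 in liver, left 8 members higher and 25 lower on the TS in kidney, 1 and 25 in liver, and 1 with a lower ratio in kidney. Among the members reported, signs that turned under it were, as log2 TS/NTS in kidney, Hoxa3 -0.10, Hoxa7 -1.27, Hoxa9 -0.25, Hoxa10 -1.13, Hoxa11 -1.25, Hoxb2 -0.17, Hoxb3 -0.59, Hoxb5 -1.39, Hoxb6 -0.75, Hoxb7 -1.12, Hoxb8 -0.96, Hoxc9 -0.31, Hoxc13 -1.91, Hoxd1 -1.23, Hoxd8 -2.03, Hoxd9 -0.62, Hoxd10 -0.63 and Hoxd11 -1.94. In liver they were Hoxa3 -1.85, Hoxa4 -1.08, Hoxa5 -0.54, Hoxa7 -1.76, Hoxa9 -1.75, Hoxb2 -0.24, Hoxb3 -0.27, Hoxb5 -1.13, Hoxb6 -1.18, Hoxb7 -0.70, Hoxb9 -1.61, Hoxc4 -1.26, Hoxc6 -1.26, Hoxc8 -1.33, Hoxd3 -1.86 and Hoxd4 -1.53. Leaving out 1 library at a time gave 35 to 38 members higher on the TS in kidney than in liver, 36 to 39 on the NTS, 30 to 31 and 15 to 19 higher on the TS than on the NTS in kidney and liver, 19 to 21 higher and 3 to 5 lower ratios, and 0 to 2 rhythmic members on the kidney TS, 0 to 1 on the liver TS, 0 on the kidney NTS and 0 to 1 on the liver NTS. Rhythmic members on the kidney TS numbered 2 with library totals as the scale and 1 in DESeq2, and without both liver libraries that stand apart 5 on the liver TS and 1 on the liver NTS; the cause was not tested. Leaving out both was chosen after seeing the data. With the replicate number as a block, 1 member was rhythmic on the kidney TS, 19 rather than 18 were higher on the TS in liver and 4 rather than 3 had a lower ratio in kidney, while the tissue counts were 36 and 38 as without it. The median kidney TS density of 2.86 RPKM became 3.42 with gene reads as the total and 2.25 over the 29 members that overlap no entry. Depth limits the sparse members most: Hoxb13, Hoxc12 and Hoxd12 had 71, 56 and 54 TS reads over the 12 kidney libraries.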
